A study of Mus musculus with 6 samples.

Results

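The 10 genes described here encode transcription factors of the primed epiblast and of the anterior neural plate: Otx1, Otx2, Hesx1, Zic1, Zic2, Zic5, Pou3f1, Six3, Six6 and Rax. They were chosen by symbol from 19938 genes, and each was read from its brightest probe set with a single gene symbol. Their RNA was measured in embryoid bodies (EBs), the suspended clumps that embryonic stem (ES) cells form as they differentiate. The cells were of the established mouse line R1, plated at 35000 cells per ml without leukaemia inhibitory factor. EBs that were 4 days old then received 2 μM retinoic acid (RA). Day 0 stands for EBs taken before RA, and day 3 and day 4 for EBs exposed to it for that many days, with 2 Affymetrix arrays per day. Age-matched EBs that never received RA were not analysed here, so the effect of RA and that of longer culture cannot be told apart.

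Otx2, Zic2, Zic5 and Pou3f1 are expressed when ES cells or the embryo pass to the primed epiblast, the epithelium from which all body tissues arise. Otx2, a homeodomain factor, is then kept in the future forebrain and midbrain, where Otx1 acts beside it. Six3, Six6 and Rax specify the eye field and the front of the forebrain, Hesx1 is a repressor needed for the forebrain and the pituitary, and the Zic zinc finger factors act in the neural plate, dorsal neural tube and neural crest. RA is a textbook posteriorizing signal of the neural axis, and the forebrain is formed where its level is kept low.

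Values are log2 intensities after Robust Multichip Average (RMA), which sets all arrays to one distribution, so that levels are relative within an array. The array medians over all probe sets lay between 6.69 and 6.85, and replicate arrays of a day correlated at 0.999 across genes, which are not independent replicates. Replicate numbers are given in the labels, but not whether the 2 RNAs of a day were from different cultures. The study describes repeated EB preparations for its sequenced RNA and does not say so of the RNA on these arrays. The p-values therefore rest only on how far arrays of the same day lay apart, pooled over the 3 days and moderated across genes. That spread may be technical. The labels call the cells embryonic stem cells. Of 10 ES cell markers, 9 were lower and 0 higher at day 4 against day 0 (25.6% of all genes were lower), and Pou5f1 stood at 6.15 at day 4 against 10.24 at day 0. Fbxo15 (5.52) and Zfp42 (5.86) were dim at day 0 already. Because whole EBs were used, fewer cells of a type and less RNA per cell cannot be told apart in any result.

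The RefSeq promoter table used here (GRCm38.p6) held 9 starts of 6 of the 10 genes, namely Otx2, Zic5, Zic1, Hesx1, Six3 and Six6. The 250 bases before the start are shown for Zic5 and for the most upstream start of Otx2. Of the 6 genes, only they were lower by the test than day 0 at both day 3 and day 4. They were also the only ones with a match to the motifs below. Otx2 has several of the 9 starts, so more of its sequence was searched than of the other genes. A link between matches and levels was not tested. Capitals mark matches on either strand to TAATCC (the core bound by OTX homeodomains), ATGCAAAT (the octamer of POU factors) or AGGTCA (the hexamer of retinoid receptors), of which TGACCT and GGATTA are the other strand's letters for the hexamer and the OTX core, and the letters of these motifs do not overlap one another in the windows.
Zic5, chr14:122465659-122465908, minus strand: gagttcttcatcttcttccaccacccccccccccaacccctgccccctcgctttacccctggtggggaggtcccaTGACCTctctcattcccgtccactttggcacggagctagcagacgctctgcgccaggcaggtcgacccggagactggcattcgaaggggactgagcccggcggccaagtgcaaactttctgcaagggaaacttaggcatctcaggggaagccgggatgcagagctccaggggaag
Otx2, chr14:48667645-48667894, minus strand: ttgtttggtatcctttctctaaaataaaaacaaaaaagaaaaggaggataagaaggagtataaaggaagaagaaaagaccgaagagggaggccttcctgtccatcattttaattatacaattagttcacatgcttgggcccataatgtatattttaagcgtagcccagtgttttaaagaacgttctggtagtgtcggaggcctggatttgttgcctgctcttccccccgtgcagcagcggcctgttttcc
Otx2 at a further start, chr14:48665303-48665332, minus strand: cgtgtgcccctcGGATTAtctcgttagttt

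The Zic5 window held 1 retinoid receptor hexamer, 170 to 175 bases before the start, and the first Otx2 window held none of the motifs. The further Otx2 start had 1 OTX core, 206 to 211 bases before it, of which 30 bases are shown. None of the 3 motifs was found at the other 6 starts. Of 32851 such windows of the table, 14% held the hexamer, 6.25% the OTX core and 1.6% the octamer. The Zic5 window was 62.4% G and C with 11 CpG sites, and the upstream Otx2 window 42% with 6, where the medians over all windows were 52.4% and 6. These matches describe letters only, and no binding was measured.

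Most of the movement among the 10 genes lay in Zic2 and Otx2, which were lower after RA, and in Pou3f1, which was higher. Another probe set annotated to Zic5 also fell (log2 change −3.03 at day 4), but it is not the probe set used for that gene. At an adjusted p of 0.05 (limma), 4 of the 10 genes were lower and 2 higher at day 4 than at day 0, with 4 that did not pass. Over all 19938 genes, 25.6% were lower and 25.9% higher in this comparison, and 51.5% passed either way. At day 3 against day 0, 5 were lower, 1 higher and 4 did not pass, where 28.1% of all genes were lower, 23.8% higher and 51.9% passed either way.

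Zic2 had the largest measured difference of the 10 genes. Zic2 is required for a divided forebrain in mouse and human. It read 9.47 and 9.85 (day 0), 5.66 and 5.96 (day 3) and 6.05 and 5.96 (day 4). Both day 0 arrays lay far above the other 4, and the arrays of day 3 and day 4 lay close together. At day 4 Zic2 was lower by 12.6-fold (log2 change −3.65, SE 0.14, adjusted p = 9.69e-07, limma), and at day 3 by 14.4-fold (−3.85, SE 0.14, adjusted p = 8.57e-07). Day 4 did not differ from day 3 beyond the spread (0.19, adjusted p = 0.342). The means after RA, 5.81 ± 0.21 at day 3 and 6.00 ± 0.06 at day 4 (SD, n = 2), were close to an intensity of 6, a dim range in which RMA can understate changes. Comparisons with day 0 share the same day 0 arrays.

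**Figure D1:**
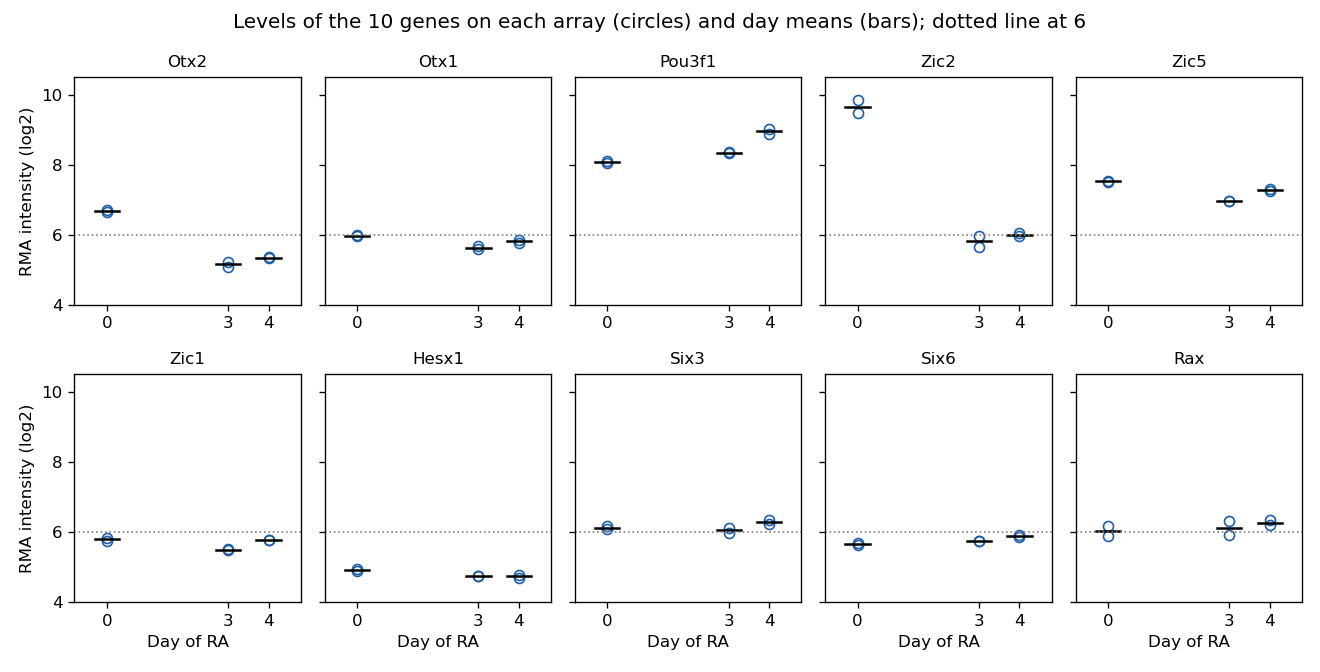
RMA intensity (log2) of the 10 genes on each of 6 arrays against the day of RA, with circles for arrays and bars for the mean of 2. Zic2 lay at 9.66 at day 0 and at 5.81 and 6.00 at day 3 and day 4, Otx2 crossed the dotted line at 6, and Pou3f1 stood highest at day 4 (8.95).

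Otx2 fell to dim levels. It read 6.69 and 6.64 (day 0), 5.24 and 5.09 (day 3) and 5.33 and 5.37 (day 4), so the day 0 arrays lay above all others. The level was 2.50-fold lower at day 4 than at day 0 (log2 change −1.32, SE 0.06, adjusted p = 2.89e-06) and 2.84-fold lower at day 3 (−1.50, SE 0.06, adjusted p = 1.81e-06). With means of 5.35 at day 4 and 5.17 at day 3, in the range where RMA compresses signals, both folds may be understated. Day 4 and day 3 did not differ by the test (0.18, adjusted p = 0.0742), although both day 4 arrays lay above both day 3 arrays. Its paralogue Otx1, which acts in the cortex and sense organs, was dim throughout. Otx1 read 5.99 and 5.96 (day 0), 5.67 and 5.58 (day 3) and 5.78 and 5.85 (day 4). It was lower at day 3 (−0.35, SE 0.06, adjusted p = 0.00164), and at day 4 the difference from day 0 lay just outside the threshold (−0.16, adjusted p = 0.0503). Leaving out single arrays did not bring this difference past the threshold, whereas median centring of the arrays (−0.31, adjusted p = 0.00338) and cyclic loess (−0.17, adjusted p = 0.0371) did. The mean of all probe sets per gene brought it (adjusted p = 0.0498) and the difference between day 4 and day 3 (0.19, adjusted p = 0.0497) just past the threshold. Otx1 has 1 probe set, so both changes stayed as they were, and only the adjusted p-values moved with the values of other genes.

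Pou3f1, which encodes the POU factor Oct6 of the epiblast and of neural progenitors, rose. It read 8.06 and 8.10 (day 0), 8.35 and 8.34 (day 3) and 9.02 and 8.88 (day 4). The 3 days did not overlap and followed one another upwards. The change was 0.26 at day 3 against day 0 (SE 0.06, adjusted p = 0.00928) and 0.87 at day 4 against day 0 (SE 0.06, adjusted p = 1.82e-05), which is 1.83-fold. Between day 4 and day 3 it was 0.60 (SE 0.06, adjusted p = 9.83e-04), or 1.52-fold. Each of these calls was kept under all 15 alternatives, with a smallest change of 0.16 at day 3 against day 0 (median centring, adjusted p = 0.0486). Not all 15 are separate checks. Pou3f1 has 1 probe set, so averaging probe sets or exchanging that of Zic5 left its change as it was. Leaving out either array of the day not compared gave the same result as the compared days alone.

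Both probe sets annotated to Zic5 were lower after RA, but by very different amounts. Zic5 acts in the dorsal neural tube and neural crest and lies next to Zic2 on chromosome 14, with 0 protein-coding genes between them. The brighter probe set on average (10422504) read 7.52 and 7.54 (day 0), 6.98 and 6.97 (day 3) and 7.31 and 7.24 (day 4). The days did not overlap, and day 3 was lowest. This gave a log2 change of −0.25 at day 4 (SE 0.05, adjusted p = 0.00539), −0.56 at day 3 (adjusted p = 9.69e-05) and 0.30 for day 4 minus day 3 (adjusted p = 0.00709). The other probe set (10376241) read 8.48 and 8.58 (day 0), 5.33 and 5.34 (day 3) and 5.55 and 5.44 (day 4). Its day 0 arrays lay far above the rest, as they did for Zic2. In a fit with this probe set in place of the first, Zic5 changed by −3.03 at day 4 and −3.20 at day 3 (adjusted p = 8.98e-08 and 8.14e-08), and the difference between day 4 and day 3 did not pass (0.17, adjusted p = 0.0968). The mean of both gave −1.64 at day 4 and −1.88 at day 3. The direction against day 0 was shared, but the size of the fall was not settled. The 10 nearest named probe sets on either side by ID number lay mostly on chromosome 14 for the first (14 of 20), where Zic5 is, and on chromosome 11 for the second (19 of 20). Which of them reads Zic5 RNA more faithfully was not tested.

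**Figure D2:**
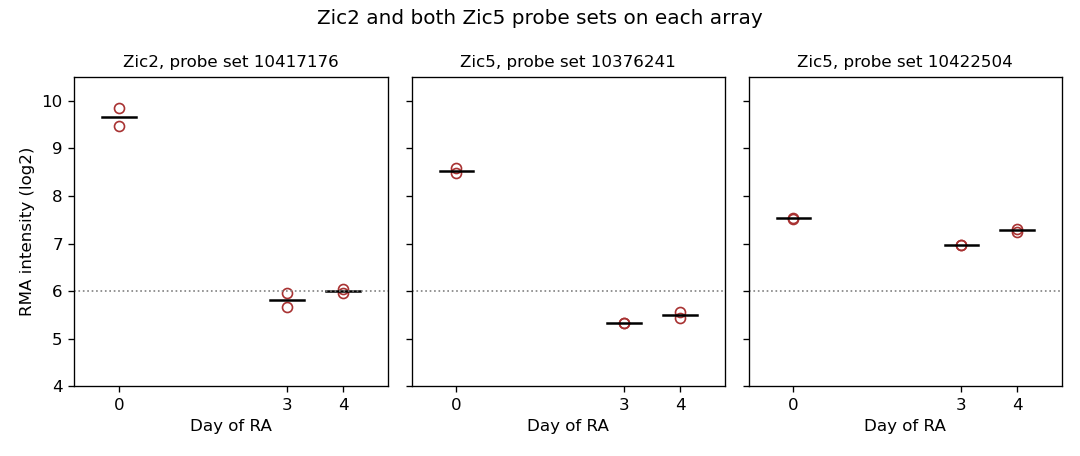
RMA intensity (log2) of Zic2 and of both probe sets annotated to Zic5 on each array against the day of RA (circles, arrays; bars, means of 2; dotted line at 6). Probe set 10376241 changed by −3.03 and Zic2 by −3.65 at day 4 against day 0 on the log2 scale, while probe set 10422504 moved by −0.25.

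Zic1, a factor of the dorsal neural tube and cerebellum, was dim and lowest at day 3. It read 5.75 and 5.84 (day 0), 5.52 and 5.48 (day 3) and 5.77 and 5.76 (day 4). The day 3 arrays lay below the other 4, and day 4 overlapped with day 0. Zic1 was lower at day 3 than at day 0 (−0.29, SE 0.06, adjusted p = 0.00341) and higher at day 4 than at day 3 (0.26, SE 0.06, adjusted p = 0.0136), while day 4 and day 0 did not differ by the test (−0.03, adjusted p = 0.700). The difference between day 4 and day 3 no longer passed when day 3 replicate 1 (0.28, adjusted p = 0.0569) or 2 (0.25, 0.0699), or day 4 replicate 1 (0.26, 0.0570) or 2 (0.27, 0.0606), was left out. Its neighbour Zic4 on chromosome 9 has a pair of probe sets. The brighter one read 5.66 ± 0.15 at day 0, 6.29 ± 0.20 at day 3 and 5.98 ± 0.06 at day 4 (SD, n = 2) and passed at day 3 (0.63, adjusted p = 0.00199) and day 4 (0.32, adjusted p = 0.0397). The other stayed between 5.07 and 5.26 on all 6 arrays. By ID number the brighter one stood among probe sets of chromosome 7 (19 of 20) and the other among those of chromosome 9 (19 of 20), so no direction is given for Zic4.

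The forebrain and eye field factors Hesx1, Six3, Six6 and Rax stayed near or below an intensity of 6 at all 3 days. Hesx1 read 4.94 and 4.88 (day 0), 4.75 and 4.74 (day 3) and 4.78 and 4.69 (day 4). All arrays in RA lay below those of day 0. The change was −0.17 at day 4 (SE 0.06, adjusted p = 0.0392) and −0.16 at day 3 (adjusted p = 0.0520). The day 4 difference no longer passed when day 0 replicate 1 (−0.15, adjusted p = 0.158) or 2 (−0.20, 0.0678), either day 3 array (−0.17, 0.0632) or day 4 replicate 2 (−0.13, 0.183) was left out. It did not pass with cyclic loess (−0.16, adjusted p = 0.0662), an intensity trend (−0.17, 0.0734), the compared days alone (−0.17, 0.0632) or all probe sets tested (−0.17, 0.0668) either. Six6 read 5.68 and 5.64 at day 0, 5.74 on both arrays at day 3, and 5.85 and 5.93 at day 4. The 3 days did not overlap. Six6 rose by 0.23 at day 4 against day 0 (SE 0.05, adjusted p = 0.00981), and the call was lost without day 0 replicate 2 (0.21, 0.0541), without day 4 replicate 2 (0.19, 0.0579) and with median centring (0.08, 0.225). Day 3 did not differ by the test from day 0 (0.07, adjusted p = 0.301), nor day 4 from day 3 (0.15, adjusted p = 0.0766). The equal values of Six6 at day 3 were an exact tie, which 11 of 19938 genes showed at that day.

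Six3 and Rax passed in none of the 3 comparisons over all genes. Six3 read 6.17 and 6.08 (day 0), 6.12 and 5.98 (day 3) and 6.22 and 6.33 (day 4). The day 4 arrays were the highest, with a difference of 0.15 from day 0 (SE 0.07, adjusted p = 0.125) and of 0.23 from day 3 (SE 0.07, adjusted p = 0.0538). The difference from day 3 passed when genes averaging below 6 were left out of the test (0.23, adjusted p = 0.0361). Rax read 6.16 and 5.88 (day 0), 5.91 and 6.32 (day 3) and 6.19 and 6.34 (day 4). Its 2 arrays of day 3 differed by more than any day means did, and the change at day 4 against day 0 was 0.24 (SE 0.15, adjusted p = 0.213).

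**Figure D3:**
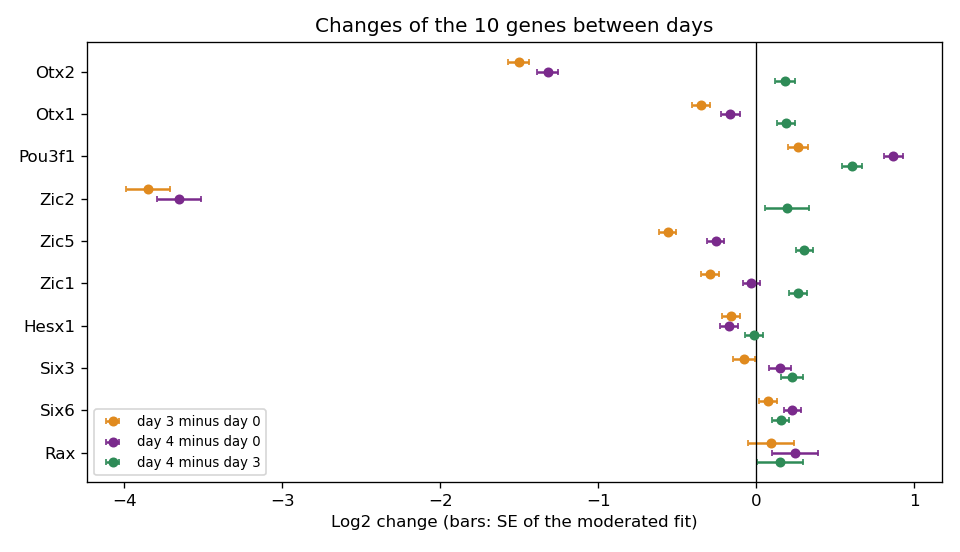
Log2 change of each of the 10 genes for day 3 minus day 0, day 4 minus day 0 and day 4 minus day 3, with bars for the SE of the moderated fit. Zic2 (−3.85 and −3.65) and Otx2 (−1.50 and −1.32) lay far to the left of 0, and Pou3f1 (0.26 and 0.87) to the right.

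With median centring of the arrays, 6 of the 10 genes were lower and 1 higher against day 0 at both days. Of all genes, 42.7% were then lower and 19% higher at day 4, and 42.6% and 19.5% at day 3. This centring moved the median of all genes to −0.15, and with it Zic1 (−0.18, adjusted p = 0.0346) and Otx1 were lower at day 4 while Six6 did not pass. Between day 4 and day 3, Pou3f1, Zic5 and Zic1 were higher and 0 lower, where 15.8% of all genes were higher, 12.2% lower and 28.1% passed either way. The count of all genes that passed between these days fell to 2728 without day 3 replicate 1, 3650 without day 3 replicate 2 and 3005 without day 4 replicate 2, against 5593 with all arrays. The difference between day 4 and day 3 was above 0 for 9 of the 10 genes, and for 61.4% of all genes. By the limits the study used for its spike-in candidates (mean below 6 and SD below 0.3, here over all 6 arrays), Otx1, Hesx1, Zic1 and Six6 were undetectable, as were 30.2% of all genes. The small calls of these 4 genes rest on such intensities.

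The relatives of the 10 genes moved in both directions. Of 15 listed genes of the same families or with related homeodomains, 12 were measured, of which 3 were higher, 4 lower and 5 did not pass at day 4 against day 0. That is 25% higher and 33.3% lower, where 25.9% and 25.6% of all genes were. The 3 that were higher were Six5, Pitx1 and the Zic4 probe set for which no direction is given. The call of this probe set was lost with median centring (0.18, adjusted p = 0.201) and cyclic loess (0.31, adjusted p = 0.0588). Six5, a family member not known from the eye field, rose by 2.19 (SE 0.06, adjusted p = 2.39e-07) and was also higher at day 3 (1.96). Six2, which keeps kidney progenitors and is the neighbour of Six3 on chromosome 17, read 8.97 and 9.04 (day 0), 8.49 and 8.62 (day 3) and 7.95 and 8.02 (day 4). It fell at each step, by 1.02 in all (adjusted p = 1.17e-05), while Six3 beside it did not pass. Six4, which lies near Six6 on chromosome 12, fell by 0.74 (SE 0.06, adjusted p = 2.55e-05). The organizer gene Gsc fell by 0.54 (adjusted p = 0.00356), and of the other POU genes of this class, Pou3f4 fell by 0.33 (adjusted p = 0.00568), while Pou3f2 (−0.09, adjusted p = 0.426) and Pou3f3 (0.09, adjusted p = 0.523) did not pass. Pitx1, a hindlimb and pituitary factor, rose by 0.40 (adjusted p = 0.00551). At day 3 against day 0, 6 of the 12 relatives were lower, 3 higher and 3 did not pass. That is 50% lower and 25% higher, where 28.1% and 23.8% of all genes were. With median centring 50% were lower at day 3, against 42.6% of all genes.

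Among other genes of the primed epiblast, most were lower after RA. Of 24 measured genes of that list, which includes Otx2, Pou3f1, Zic2 and Zic5, 16 were lower, 5 higher and 3 did not pass at day 4 against day 0 (66.7% lower, against 25.6% of all genes), with a median of −1.15. At day 3, 18 were lower and 5 higher (75% lower, against 28.1% of all genes), with a median of −1.22. Foxh1, a cofactor of nodal signalling, changed by −5.52 and the nodal co-receptor gene Tdgf1 by −4.97 at day 4. Both ended at dim levels there (5.89 and 5.94), as Zic2 did, so the sizes of these falls may be understated and are not ranked. Pou3f1 was 1 of the 5 that rose. Fgf5, a growth factor gene that marks the primed epiblast, rose by 0.75 (SE 0.06, adjusted p = 3.25e-05), Dnmt3a, a DNA methyltransferase gene, by 0.95 (SE 0.06) and the zinc finger gene Sall2 by 0.78 (SE 0.09). Of 16 genes of naive pluripotency, 10 were lower and 2 higher at day 4 (62.5% lower, against 25.6% of all genes), with a median of −0.56. Several of these genes are also used outside the epiblast. The lists were chosen with earlier results of these data known, so their shares are descriptions and not tests against all genes.

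Lhx2 and Emx2 rose at both days against day 0. Lhx2, a homeodomain factor of forebrain, eye and limb, read 6.77 and 7.08 (day 0), 11.22 and 11.05 (day 3) and 11.54 and 11.36 (day 4). Emx2, of cortex and urogenital mesoderm, read 5.39 and 5.38 (day 0), 8.60 and 8.86 (day 3) and 8.01 and 8.18 (day 4). These gave changes of 4.53 (SE 0.12) and 2.71 (SE 0.10) at day 4 against day 0, and Tbx2, a T-box factor of eye, heart and limb, rose by 1.61 (SE 0.07). Of 26 measured forebrain and eye field genes, 6 of them among the 10 described here, 8 were higher, 5 lower and 13 did not pass at day 4 against day 0, with a median of 0.03 (25.9% of all genes were higher). With median centring 5 were higher and 7 lower, with a median of −0.11, where 19% of all genes were higher and 42.7% lower. At day 3 against day 0, 5 were higher and 8 lower, and 4 and 14 with median centring. Of all genes, 23.8% were higher and 28.1% lower at day 3, and 19.5% and 42.6% with median centring. Nkx2-1, of the ventral forebrain, stood at 0.03 (adjusted p = 0.720) and the forebrain gene Fezf2 at 0.05 (adjusted p = 0.618). Between day 4 and day 3, 8 were higher (30.8%, against 15.8% of all genes) and 2 lower, but 3 higher with median centring or cyclic loess. Of 15 midbrain and hindbrain genes, Irx5 (0.63) and Lmx1b (0.26, adjusted p = 0.0337) were higher, Gbx2 (−0.68) and Egr2 (−0.30) lower and 11 did not pass. That is 13.3% higher and 13.3% lower, where 25.9% and 25.6% of all genes were. With median centring or cyclic loess, 1 was higher and 3 lower. Gbx2 was also among the naive pluripotency genes counted above.

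**Figure D4:**
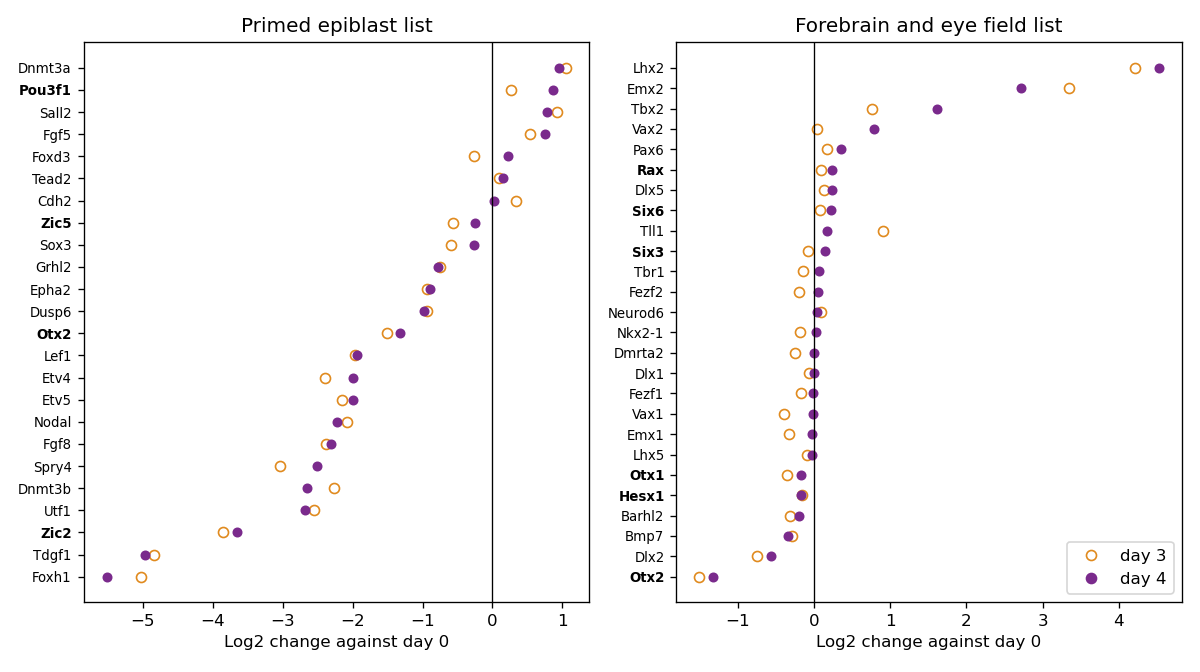
Log2 change against day 0 at day 3 (open circles) and day 4 (filled circles) of the 24 primed epiblast genes on the left and the 26 forebrain and eye field genes on the right, with the genes described here in bold. Foxh1 (−5.52 at day 4) and Lhx2 (4.53) stood at the ends, and Otx2 was the lowest of the forebrain list.

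Genes for factors that shape the front of the embryo, and for transcription factors of the tissues that make them (Foxa2, Gsc, Hhex and Lhx1), also moved both ways. Of 16 such genes, 7 were lower, 5 higher and 4 did not pass at day 4 against day 0. That is 43.8% lower and 31.2% higher, where 25.6% and 25.9% of all genes were. The Wnt antagonist genes Shisa3 (4.16) and Sfrp1 (4.07) rose and the nodal antagonist gene Lefty2 fell (−2.90), while Cer1, which marks the anterior visceral endoderm in the mouse, was dim at all days (−0.01, adjusted p = 0.923).

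Markers of other cell types were read over the same days. Some genes stand on several lists, such as Tdgf1 and Zfp42, so the lists are not separate evidence. At day 4 against day 0, 25.9% of all genes were higher and 25.6% lower (19% and 42.7% with median centring). Between day 4 and day 3, 15.8% of all genes were higher and 12.2% lower. Of 14 mesoderm and mesenchyme markers, 10 were higher and 4 lower at day 4 against day 0, and their summed linear intensity was 3727 to 3784 on the day 0 arrays, 12072 to 12135 on those of day 3 and 11514 to 11701 on those of day 4. For the 10 ES cell markers the sums were 13433 to 13843 at day 0, 1573 to 1606 at day 3 and 1230 to 1361 at day 4. The 12 neural progenitor markers gave 6040 to 6121 at day 0, 4655 to 4856 at day 3 and 5212 to 5261 at day 4, with 3 higher, 3 lower and 6 that did not pass at day 4. Sox1, a defining gene of early neural cells, was at 0.12 (adjusted p = 0.173) and Sox2 at −2.28 (adjusted p = 2.80e-05). Of 10 neuron markers 4 were higher and 4 lower at day 4 against day 0. Of 9 endoderm markers 5 were higher and 2 lower (3 and 3 with median centring), and of 10 neural crest markers 4 and 3 (2 and 4 with median centring). The 9 blood and endothelium markers summed to 6045 to 6389 at day 0, 24507 to 26694 at day 3 and 9272 to 10199 at day 4. Of these, 5 were higher and 4 lower at day 4 against day 0, and 7 were lower and 0 higher at day 4 against day 3 (median −0.95), where Pou3f1, Zic5 and Zic1 were higher. Of 10 measured genes known to respond to retinoids, 8 were higher and 1 lower at day 4, with a median of 3.23. The part of these shifts in the changes of the 10 genes was not tested.

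The genes whose course was most like that of Otx2 over the 6 arrays, by Euclidean distance after subtraction of each gene's day 0 mean, were the folate enzyme gene Fpgs (distance 0.0972 on the log2 scale), the kinase gene Nuak1 (0.140) and the tubulin gene Tuba8 (0.148). Those nearest to Zic2 were Ms4a4d (0.454), the thyrotropin-releasing hormone gene Trh (0.476) and the immunoproteasome gene Psmb8 (0.508). Trh changed by −3.60 at day 4 and −3.68 at day 3, beside −3.65 and −3.85 for Zic2.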

How the data were processed

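Each sample was run on 1 Affymetrix Mouse Gene 1.0 ST array. The authors deposited log2 intensities computed by Robust Multichip Average (RMA) in Partek, with background correction, quantile normalization and probe set summary. No software version for the arrays is given in the sources used here. RMA gives changes relative to the other transcripts and compresses dim signals. Of 35557 probe sets, 21789 had 1 gene symbol in the platform annotation, 1621 had several and 12147 none. A gene with several probe sets was read from the one brightest on average over the 6 arrays, which gave 19938 genes. Sample titles gave the day and the replicate number.

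Tests used limma 3.58.1 (R 4.3.3; two-sided, lmFit then eBayes without a trend), with all 6 arrays and a mean for each day in 1 fit (3 residual and 4.07 prior degrees of freedom). Benjamini-Hochberg adjustment was made across all 19938 genes, and an adjusted p of 0.05 or less was a call. The fit was tested on simulated data. SD is over 2 arrays and SE from the moderated fit. Arrays carry no read depth, and their small number limits the precision. The 10 genes and the gene lists were chosen with earlier results of these data known. All 10 genes are described. Of the lists, family relatives, genomic neighbours, the 3 largest changes and up to 2 genes that did not pass were named, and for genes with a log2 change of 1 or more the 3 nearest in course, without predicted genes. Other named genes, such as Fgf5, Dnmt3a, Sall2, Sox1, Sox2, Lmx1b, Fbxo15, Zfp42 and Pou5f1, were chosen after their values were seen. Alternatives were the replicate block, median centring, cyclic loess, an intensity trend with robust moderation, a filter on dim genes, the mean of probe sets, all probe sets tested, the arrays of the compared days alone, and each array left out. The dimmer Zic5 probe set was added after seeing the data. Gene neighbours, types and promoters came from RefSeq (GRCm38.p6). The array table names no genome build. Figures were drawn in Python 3.11.15 with matplotlib 3.10.9.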

Additional observations from a re-analysis of the deposited data

Results flagged for a closer look

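Of the 10 genes, 3 differed between day 4 and day 3, which is the difference of their effects against the shared day 0 arrays. Over all 19938 genes 28.1% passed in this comparison, so 3 of 10 is near the background. Pou3f1 was higher at day 4 than at day 3 by 0.60 (SE 0.06, limma adjusted p = 9.83e-04), Zic5 by 0.30 (SE 0.05, adjusted p = 0.00709) and Zic1 by 0.26 (SE 0.06, adjusted p = 0.0136). For Zic5 this held in the brighter probe set, while the other gave 0.17 (adjusted p = 0.0968).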

How the results depend on the processing

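Zic2, Otx2 and Pou3f1 kept their direction and their side of the threshold against day 0 under every alternative that tested them, with log2 changes at day 4 between −3.85 and −3.46 for Zic2, −1.47 and −1.30 for Otx2, and 0.72 and 0.93 for Pou3f1. Each has 1 probe set, so the alternatives on probe sets could not alter these changes. Median centring gave 8521 genes lower at day 4 and 8495 lower at day 3 against day 0, beside 3781 and 3889 higher, where the values as deposited gave 5106 and 5596 lower beside 5154 and 4749 higher. It left 1 of the 10 genes higher at day 4 and turned Six6 (−0.026) and Rax (−0.0041) below 0 at day 3 against day 0. Testing all 35557 probe sets gave 7993 lower and 6173 higher at day 4 against day 0. Between day 4 and day 3 it gave 4637 lower and 2934 higher. These are counts of probe sets out of a larger number tested, so they cannot be compared directly with the gene counts. With genes below a mean of 6 removed, which leaves out Otx1, Otx2, Hesx1, Zic1 and Six6, 1 was higher and 2 lower at day 4, and 2 lower at day 3, against day 0. Of all 13684 genes left, 4947 were higher and 4818 lower at day 4, and 4657 and 5018 at day 3. When 1 array was left out, the lone array of that day was assumed to vary like the others. Genes called then numbered 9073 to 9973 at day 4 against day 0 (higher 4501 to 4999, lower 4486 to 4974), 8741 to 10212 at day 3 against day 0 (higher 4111 to 4706, lower 4551 to 5506) and 2728 to 5276 between day 4 and day 3 (higher 1355 to 2998, lower 1370 to 2278). Of the 10 genes, 1 to 2 were then higher and 3 to 4 lower at day 4 against day 0, 1 higher and 5 lower at day 3 against day 0, and 2 to 3 higher and 0 lower between day 4 and day 3. Values near 0 changed sign without single arrays. Zic1 at day 4 against day 0 ranged between −0.076 and 0.016 (the highest without day 0 replicate 2), and Hesx1 between day 4 and day 3 between −0.061 and 0.034 (the highest without day 4 replicate 2). Rax at day 3 against day 0 ranged between −0.11 and 0.30 (below 0 without day 0 replicate 2, −0.043, or day 3 replicate 2), and between day 4 and day 3 between −0.056 and 0.35 (below 0 without day 3 replicate 1). The cause of these shifts was not tested. Arrays with the same replicate number shared little (correlations of their deviations 0.058, 0.0342 and 0.0834), so the numbers were not taken to pair the arrays. With the replicate block, 10251, 10359 and 5469 genes passed at day 4 against day 0, day 3 against day 0 and day 4 against day 3, where 10260, 10345 and 5593 passed without it, and it changed no call of the 10 genes.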
